A study of Mus musculus with 4 samples.

Results

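The retinoblastoma family of pocket proteins has 3 genes in the mouse, Rb1, Rbl1 and Rbl2, and their transcripts were followed here in pancreatic islets in which Rb1 had been targeted for deletion. Pocket proteins bind E2F transcription factors and hold genes of DNA replication and cell division in check. Cyclin-dependent kinases release this hold by phosphorylating them when a cell enters the division cycle. Rb1 encodes pRb, which mainly binds the activating E2F factors. Rbl1 encodes p107 and Rbl2 encodes p130, which bind the repressing factors E2F4 and E2F5 and form the DREAM complex with the MuvB proteins. Rbl2 is the family member known from resting cells, whereas Rbl1 is itself a known E2F target that is higher in dividing cells. The members were the probes of an Agilent mouse expression array whose accession maps to 1 of the 3 genes. There were 6 such probes among 56605 probes in all, and 3 genes among the 22911 with a symbol.

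Islets of 4 mice were measured, each on 1 single-colour array. According to the labels, 2 mice had the genotype Pdx1-Cre and are called wild type in the sample titles. The other 2 mice had the genotype Pdx1-Cre:Rbf/f, which adds floxed Rb alleles, and are called Rb-deficient. The Cre transgene was thus shared by both groups. Pdx1-Cre is active in the pancreatic lineage, so that vessels, blood cells and other cells of an islet preparation lie outside its reach. The labels give no age, sex or strain.

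On every array all 10 endocrine marker genes, among them Ins1, Ins2, Gcg and Sst, were well above background by the scanner software's own test. All 14 acinar marker genes were as well, so exocrine RNA was present in all 4 preparations. Wild type array 1 stood apart, with 76.5% of probes well above background against 59.0% to 59.9% on the others, and 40.7% of the probes tested had their highest value there. It also had all 4 Y-linked marker genes well above background and Xist below it, the reverse of the other 3 arrays, so the wild type pair joined arrays that differ in sex-linked signal. The values of the pocket protein probes, of their pairs and of the pathway list as a whole are therefore also given without this array. In limma with Benjamini-Hochberg adjustment over 33846 probes, 0 probes (0%) were called at an adjusted p under 0.05. The lowest adjusted p was 0.170, and 1894 probes (5.6%) had an unadjusted p under 0.05. With a variance trend and robust estimation limma also called 0 probes, with 1959 at an unadjusted p under 0.05.

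Rb1 signal was lower in Rb-deficient islets in both of its probes but was still measured there. The brighter probe, A_51_P136888, was designed to the RefSeq transcript NM_009029. Its processed signal was 438 and 743 intensity units on wild type arrays 1 and 2, and 260 and 261 on Rb-deficient arrays 1 and 2. The scanner software put the error of each of these spots at 10.01% to 10.05% of the signal. Every value stood at least 23.5 times above the lowest signal that was well above background on its array. Relative to the array's 75th percentile, the log2 signals were 0.28 and 0.86 in wild type islets and -0.48 and -0.90 in Rb-deficient islets. The groups did not overlap, and the smallest gap between a wild type and an Rb-deficient array was 0.77 on the log2 scale. With this scaling both mice of a genotype were thus closer to each other than to either mouse of the other genotype.

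The second Rb1 probe, A_55_P2638217, was designed to the same transcript and was dimmer. It gave 76.9 and 94.8 intensity units in wild type islets, and 35.6 and 28.5 in Rb-deficient islets. On the log2 scale these were -2.23 and -2.11 against -3.35 and -4.10. Again the groups did not overlap. Here the wild type arrays differed by little, and the Rb-deficient arrays were the more spread pair, with an SD of 0.53 (n = 2) against 0.08 (n = 2).

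The means of the brighter probe differed by -1.26 with a standard error of 0.31 and a 95% interval from -2.12 to -0.40. Rb1 signal in Rb-deficient islets was thus 41.7% of the wild type signal, with an interval from 22.9% to 75.7%. The second probe gave a difference of -1.56 with a standard error of 0.32, or 34.0% of wild type, with an interval from 18.3% to 63.4%. Neither was called, with adjusted p values of 0.744 and 0.655 in limma with Benjamini-Hochberg adjustment, and unadjusted p values of 0.0156 and 0.0089. Lower in Rb-deficient islets at an unadjusted p under 0.05 were 4.17% of all probes. Of all probes tested, 21.3% had Rb-deficient values that lay wholly below the wild type values and 7.39% were at least 2-fold lower, so that a lack of overlap alone was common on these arrays. Smaller p values than that of the brighter Rb1 probe were found for 2.09% of all probes, and smaller than that of the second for 1.35%. Without wild type array 1 the differences were -1.55 and -1.61. In whole islets, fewer cells that express a gene and less RNA per cell cannot be told apart. Whether the probes lie in the floxed part of Rb1 was not analysed here, so neither probe checks the genotype by itself.

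**Figure D1:**
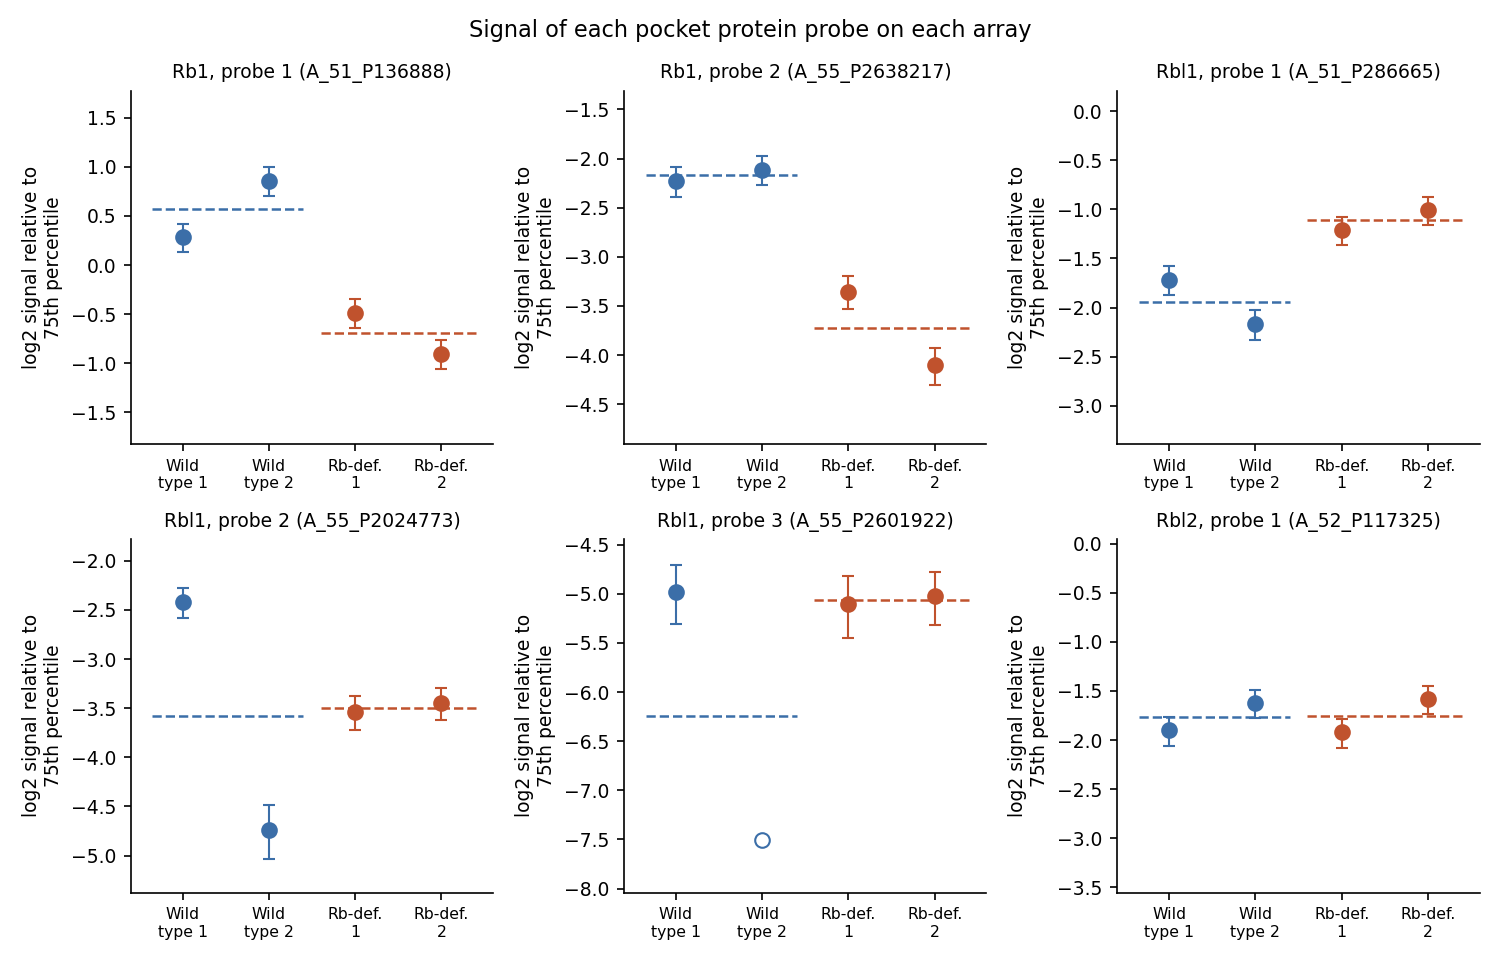
Log2 processed signal relative to the array's 75th percentile (vertical axis, the same span of 3.6 in every panel) of the 6 pocket protein probes on the 4 arrays (wild type in blue, Rb-deficient, shortened to Rb-def., in orange). Bars show the scanner's error of the spot, dashed lines the group means, and an open point, drawn without its error, a spot not well above background; the groups separate for both Rb1 probes and for Rbl1 probe 1, while for Rbl2 they interleave.

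Rbl1, the p107 gene, had 3 probes, and they did not give the same picture. The brightest, A_51_P286665, was designed to the transcript NM_011249. It gave 110 and 91.2 intensity units in wild type islets, and 157 and 242 in Rb-deficient islets, with scanner errors of 10.05% to 10.3%. The log2 signals were -1.72 and -2.17 against -1.21 and -1.01. Both Rb-deficient mice lay above both wild type mice, and the smallest gap was 0.50. The mean difference was 0.83 with a standard error of 0.25 and a 95% interval from 0.14 to 1.52, which is 1.78-fold higher. Its unadjusted p was 0.0293 and its adjusted p was 0.814 in limma with Benjamini-Hochberg adjustment, so it was not called. Rb-deficient values lay wholly above the wild type values in 14.8% of all probes, and 1.43% were higher at an unadjusted p under 0.05. The mean difference was smaller than that of this Rbl1 probe, or negative, for 97.8% of all probes. Without wild type array 1 the difference was 1.06.

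The other Rbl1 probes were both designed to the transcript NM_001139516. Probe A_55_P2024773 gave 67.4 and 15.4 intensity units in wild type islets, and 31.3 and 44.8 in Rb-deficient islets. The wild type arrays were thus the highest and the lowest of the 4, with the Rb-deficient arrays between them. The mean difference was 0.08 with a standard error of 0.85, and it was 1.24 without wild type array 1 and -1.07 without wild type array 2. Probe A_55_P2601922 was close to background throughout. It gave 11.4 and 2.26 intensity units in wild type islets, the second value not well above background, and 10.6 and 15.0 in Rb-deficient islets. Where it was measured, it stood 1.11 to 1.36 times above the lowest signal well above background on its array. A difference that includes the unmeasured spot is not a measured fold. With that spot set to the lowest signal well above background on its array, an alternative chosen after seeing the data, the mean difference was 0.05. For both of these probes the groups overlapped, although A_55_P2601922 did not overlap with quantile normalization or median scaling, where the spot not above background was the lowest. The high value of wild type array 1 falls on the array where 40.7% of all tested probes were highest. The part of that array's broader signal in these values was not tested. Neither was called, and the adjusted p of A_55_P2024773 was 0.987 (limma, Benjamini-Hochberg). Which Rbl1 transcripts each probe can bind was not analysed here.

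The promoters of Rbl1 and Rbl2 are shown because only the first of them holds a match to the E2F letters searched, next to its start site. Both run 5′ to 3′ on the gene's strand and end at the base before the annotated start, from RefSeq on GRCm38.p6. Capitals mark matches to the E2F motif, searched as TTTCGCGC, TTTGGCGC, TTTCCCGC and TTTGCCGC, or to the CHR element TTTGAA, on both strands. The CHR element shares only its first letters with the E2F spellings, and no match overlapped another.
Rbl1, chr2:157204535-157204784, minus strand: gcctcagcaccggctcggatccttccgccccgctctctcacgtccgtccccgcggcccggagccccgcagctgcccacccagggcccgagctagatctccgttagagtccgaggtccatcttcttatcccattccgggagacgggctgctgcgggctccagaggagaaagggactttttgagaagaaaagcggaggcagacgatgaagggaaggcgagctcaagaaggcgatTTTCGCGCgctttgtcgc
Rbl2, chr8:91069807-91070056, plus strand: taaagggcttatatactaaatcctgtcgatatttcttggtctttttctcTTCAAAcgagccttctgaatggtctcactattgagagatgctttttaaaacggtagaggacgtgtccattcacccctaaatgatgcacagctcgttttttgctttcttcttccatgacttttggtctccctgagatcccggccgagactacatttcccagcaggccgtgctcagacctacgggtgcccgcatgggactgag
The Rbl1 match, TTTCGCGC, ran from position -18 to position -11 relative to the start. These letters were present in 0.256% of the 32851 windows of the same length in the promoter table, and any of the 4 E2F spellings in 1.86%. The Rbl2 window held TTTGAA on its other strand, from -201 to -196, as did 16.0% of all windows on either strand. A match is a description of the letters, and binding was not measured in these islets.

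Rbl2, the p130 gene, had 1 probe, A_52_P117325, designed to the transcript NM_011250. It gave 96.5 and 133 intensity units in wild type islets, and 96.0 and 163 in Rb-deficient islets, with scanner errors of 10.1% to 10.2%. The log2 signals were -1.90 and -1.63 against -1.92 and -1.59. The groups interleaved, with the array numbered 1 the lower of each pair and the array numbered 2 the higher. The mean difference was 0.01 with a standard error of 0.23 and a 95% interval from -0.64 to 0.66, so that a level from 64.4% to 158% of wild type lay within it (adjusted p 0.994, limma with Benjamini-Hochberg adjustment). The sign of so small a value depended on the scaling, with 0.45 when arrays were scaled to their median and -0.04 when the percentile was taken over detected probes. It was -0.13 without wild type array 1.

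**Figure D2:**
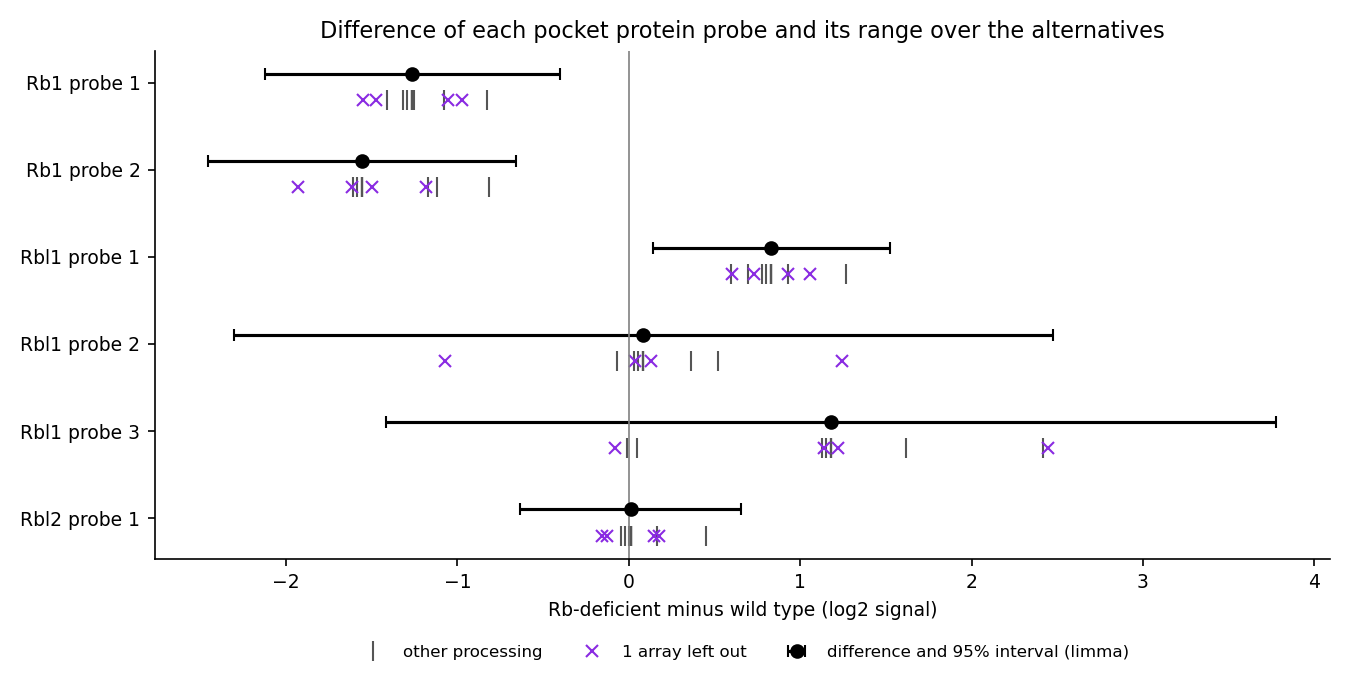
Difference in log2 signal between Rb-deficient and wild type islets (horizontal axis) for each pocket protein probe, with its 95% interval from limma (black), the value under each other way of processing (grey ticks) and the value with 1 array left out (violet crosses). The Rb1 probes stay below 0 throughout, from -1.55 to -0.83 and from -1.93 to -0.82, Rbl1 probe 1 stays above 0, from 0.60 to 1.27, and the other 3 probes fall on both sides, with Rbl1 probe 3 resting on a wild type spot not well above background.

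Scaling matters for all these values. When arrays were divided by their median rather than their upper quartile, the median difference over all probes moved from -0.07 to 0.37. The difference of the brighter Rb1 probe was then -0.83 and that of Rbl1 probe A_51_P286665 was 1.27. The groups did not overlap for either, nor for the second Rb1 probe, but the Rb1 gap narrowed. The brighter Rb1 probe had 3.15 and 4.41 in wild type islets against 3.04 and 2.88 in Rb-deficient islets. For both Rb1 probes wild type array 1 then lay nearer to Rb-deficient array 1 than to wild type array 2.

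The difference between the log2 signals of 2 probes on the same array does not depend on this choice. The brightest probes of the 3 genes gave 3 such pairs, so the less bright Rbl1 probes do not enter. Rbl1 minus Rb1 was -1.997 and -3.03 in wild type islets, and -0.73 and -0.11 in Rb-deficient islets. The ratio of Rbl1 to Rb1 signal was thus 4.27-fold higher in Rb-deficient islets, a log2 shift of 2.09. Rbl2 minus Rb1 was -2.18 and -2.48 in wild type islets and -1.44 and -0.68 in Rb-deficient islets, a shift of 1.27 or 2.42-fold. Rbl1 minus Rbl2 was 0.19 and -0.54 in wild type islets and 0.71 and 0.57 in Rb-deficient islets, a shift of 0.82 or 1.77-fold. In all 3 pairs both Rb-deficient arrays lay above both wild type arrays, by at least 1.27, 0.75 and 0.39. The pairs share probes, and any 2 of them fix the other, so they are not separate results. For single probes the groups did not overlap, in either direction, in 36.1% of cases. The share over other pairs of probes was not computed. The exact permutation p, two-sided, was 0.333 for each pair, which is the smallest that 2 arrays against 2 can give, so it stays at 0.333 after Benjamini-Hochberg adjustment over the 3. Without wild type array 1 the shifts were 2.61, 1.42 and 1.19, and without wild type array 2 they were 1.58, 1.12 and 0.45. Without Rb-deficient array 1 they were 2.41, 1.65 and 0.75, and without Rb-deficient array 2 they were 1.78, 0.90 and 0.89. With the mean of all probes of a gene that were measured on all arrays, the shift of Rbl1 minus Rbl2 was 0.45. The groups then overlapped for this pair, with wild type array 1 above both Rb-deficient arrays. A ratio of this kind does not show which of its genes differed.

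**Figure D3:**
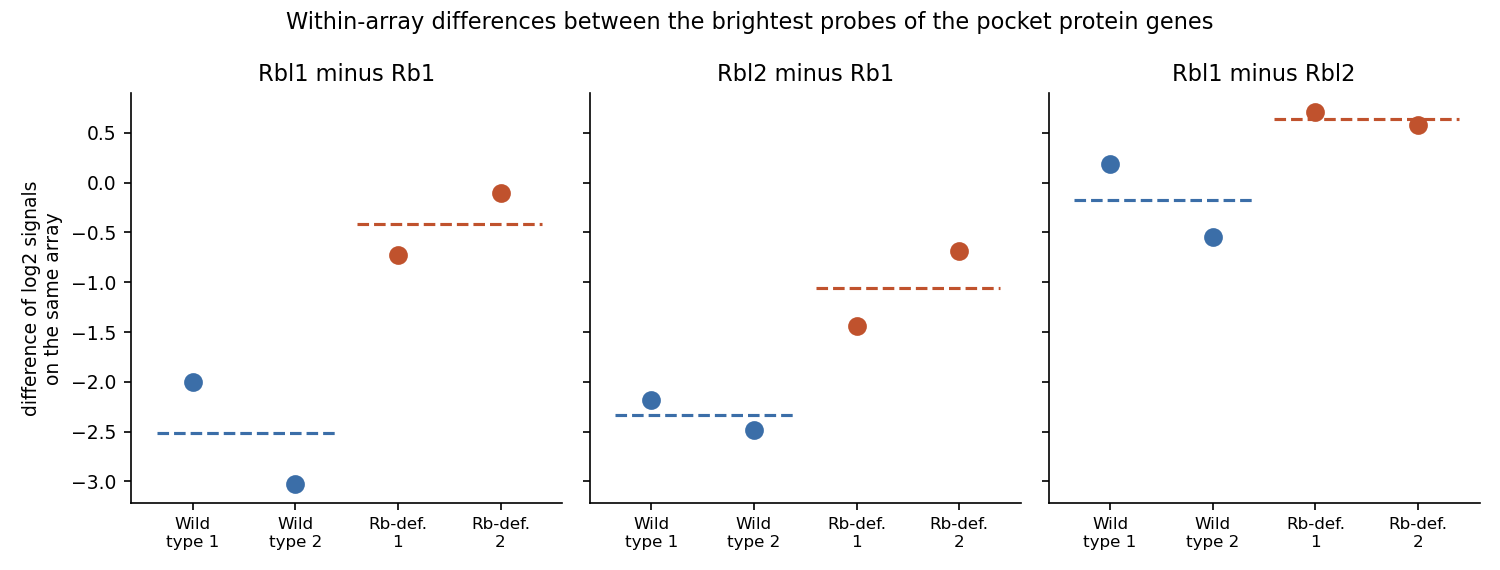
Difference between the log2 signals of the brightest probes of 2 pocket protein genes on the same array (vertical axis), for the 3 pairs on the 4 arrays, with dashed lines at the group means. Rbl1 minus Rb1 lies at -1.997 and -3.03 for wild type (blue) and at -0.73 and -0.11 for Rb-deficient islets (Rb-def., orange), and both other pairs are also higher on the Rb-deficient arrays.

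Genes with a pattern like that of each member were sought among 14999 other genes measured on all 4 arrays, by the root mean square difference of the log2 values after centring each gene on its mean over the 4 arrays. Closest to Rb1 were Tnfrsf11b, which encodes the decoy receptor osteoprotegerin, at 0.052, Habp2, which encodes a serine protease that binds hyaluronan, at 0.079, and 1700063D05Rik at 0.10. Just 3 genes lay within 0.1 of Rb1. Closest to Rbl1 were Ceacam10, a gene of the carcinoembryonic antigen family, at 0.048, the neural adhesion gene Cntn1 at 0.057 and Nmral1 at 0.063, with 7 genes within 0.1. Closest to Rbl2 were Glud1, which encodes glutamate dehydrogenase, at 0.0017, the translation initiation factor gene Eif2b3 at 0.0075 and the proteasome gene Psmd5 at 0.0098. Within 0.1 of Rbl2 there were 1302 genes. These counts depend on how far a gene's own values spread over the 4 arrays, so they are not compared between the members.

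The other genes of the pathway were described from a list of 39, of which 36 were tested and 0 were called, as for all probes (0%). E2f3, Cdk6 and Ccne2 each had 1 probe and it did not pass the filter on dim signal. A mean difference above 0 was found for 25 of the 36, against 41.4% of all probes. The list takes 1 probe per named gene, so shares over all probes are not a like measure. Counted by gene, 53.1% of 12533 tested genes with a promoter sequence were higher, with a median difference of 0.02. Both Rb-deficient values lay above both wild type values for 15 of the 36 and below for 5, against 14.8% and 21.3% of all probes. The median difference of the 36 was 0.27, against -0.07 for all probes, and it was 0.18 without wild type array 1. Without Rb-deficient array 2 it was 0.14, with 22 of the 36 above 0. An unadjusted p under 0.05 was found for 8 of them, namely E2f1, E2f8, Ccnd1, Cdk2, Cdkn2a, Cdkn2b, Cdkn2c and Skp2, against 5.6% of all probes. Of these, E2f8 and Skp2 were tested only because they were measured in the Rb-deficient islets, where they were high. Both also enter the counts above 0 and without overlap, and the median. Among probes well above background on all arrays, 23 of 34 list genes were above 0. Their median was 0.20, against -0.05 for all probes in that setting. With median scaling 33 of the 36 were above 0, and Ccnd1, Ccnd2 and Mybl2 were the 3 below it. In that setting the median difference of all probes was 0.37, and limma gave every probe the same variance, since its estimate of the prior degrees of freedom was infinite. There 572 of the 33846 probes were called, Cdkn2a, E2f8 and Skp2 among them, without use of each probe's own spread between mice. The wild type spots of E2f8 and Skp2 were not well above background.

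Among the partners that pocket proteins bind, E2f1, an activating factor, had log2 signals of -0.43 and -0.15 in wild type islets and 0.59 and 0.87 in Rb-deficient islets. E2f2, the other activating factor tested, overlapped between the groups, with a difference of 0.14 and a standard error of 0.28. E2f4 and E2f5, the partners of p107 and p130, differed by 0.11 and -0.09 with standard errors of 0.17 and 0.19. E2f8, an atypical repressor and known E2F target, was not well above background on either wild type array and was on both Rb-deficient arrays. It was at least 3.55-fold higher there, a bound taken against the lowest measurable signal (adjusted p 0.749, limma with Benjamini-Hochberg adjustment). Tfdp1, which encodes the DP1 partner of E2F, had -0.34 and -0.38 in wild type islets and 0.01 and 0.34 in Rb-deficient islets. Tfdp2, the other DP partner listed, went the other way with overlap between the groups. It differed by -0.15, and by -0.12 in another probe. E2f7, the second atypical repressor, differed by 0.26 in its brightest probe and by 2.03 in another, so its probes disagreed in size.

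Of the 6 genes listed as MuvB core and its partners, 3 were higher in mean and 3 lower, with a median of -0.10, and of the lower ones Lin37 and Lin52 were above 0 with median scaling. Without Mybl2, which is no subunit of DREAM, a choice made after seeing the data, 3 of 5 were higher, with a median of 0.03. Lin9, Lin37, Lin52 and Lin54, the LIN subunits of the MuvB core, differed by 0.13, -0.22, -0.23 and 0.03. Rbbp4, a histone-binding subunit of the core, had 4.79 and 4.84 in wild type islets and 5.05 and 5.31 in Rb-deficient islets. Mybl2 is a known E2F target and encodes B-Myb, which takes the place of the pocket protein on MuvB in dividing cells. Its log2 signals were -0.63 and -1.15 against -1.21 and -1.79, lower in Rb-deficient islets without overlap (difference -0.61, standard error 0.33). None of the 6 had an unadjusted p under 0.05.

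Of the genes that control the phosphorylation of pocket proteins, cyclins D1 and D2 lay lower and INK4 inhibitors higher in Rb-deficient islets, all without being called. Ccnd1, a D cyclin that starts the phosphorylation of pRb, had 3.69 and 3.23 in wild type islets and 2.55 and 1.75 in Rb-deficient islets. Ccnd2 had 7.80 and 7.70 against 7.33 and 6.58. Their partner kinase Cdk4 differed by 0.31 with a standard error of 0.20, and Ccnd3 by 0.07. Both members tested of the cyclin E pair, which completes the phosphorylation, were higher in Rb-deficient islets without overlap, as were 14.8% of all probes. Ccne1 had 0.18 and 0.29 against 0.65 and 0.92. Cdk2 had -4.81 and -5.05 against -4.14 and -3.93, and its wild type values lay close to the lowest signal well above background. All 4 genes listed as INK4 inhibitors, which block Cdk4 and Cdk6, were higher in mean, as were 41.4% of all probes. Their median was 0.87, and Cdkn2d overlapped between the groups. Cdkn2a differed most of the 4, with -3.15 and -3.03 against -0.55 and 1.24. Which Cdkn2a transcripts its probes bind was not analysed here. Cdkn2b, which encodes p15, had 0.20 and 0.45 against 0.80 and 1.05. Skp2, part of the ubiquitin ligase that degrades the inhibitor p27, was at least 2.54-fold higher by the same kind of bound. The p27 gene Cdkn1b had 2.34 and 2.31 against 2.62 and 2.66. Cdkn1a and Cdkn1c, listed in the same role, overlapped between the groups. Their differences were 0.28 and -0.00048, with standard errors of 0.60 and 0.37, and another Cdkn1a probe gave 1.32. Of the chromatin proteins that bind the pocket, Rbbp7 stood 0.51 higher, and Hdac1, Hdac2, Kdm5a, Arid4a and Suv39h1 overlapped between the groups.

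**Figure D4:**
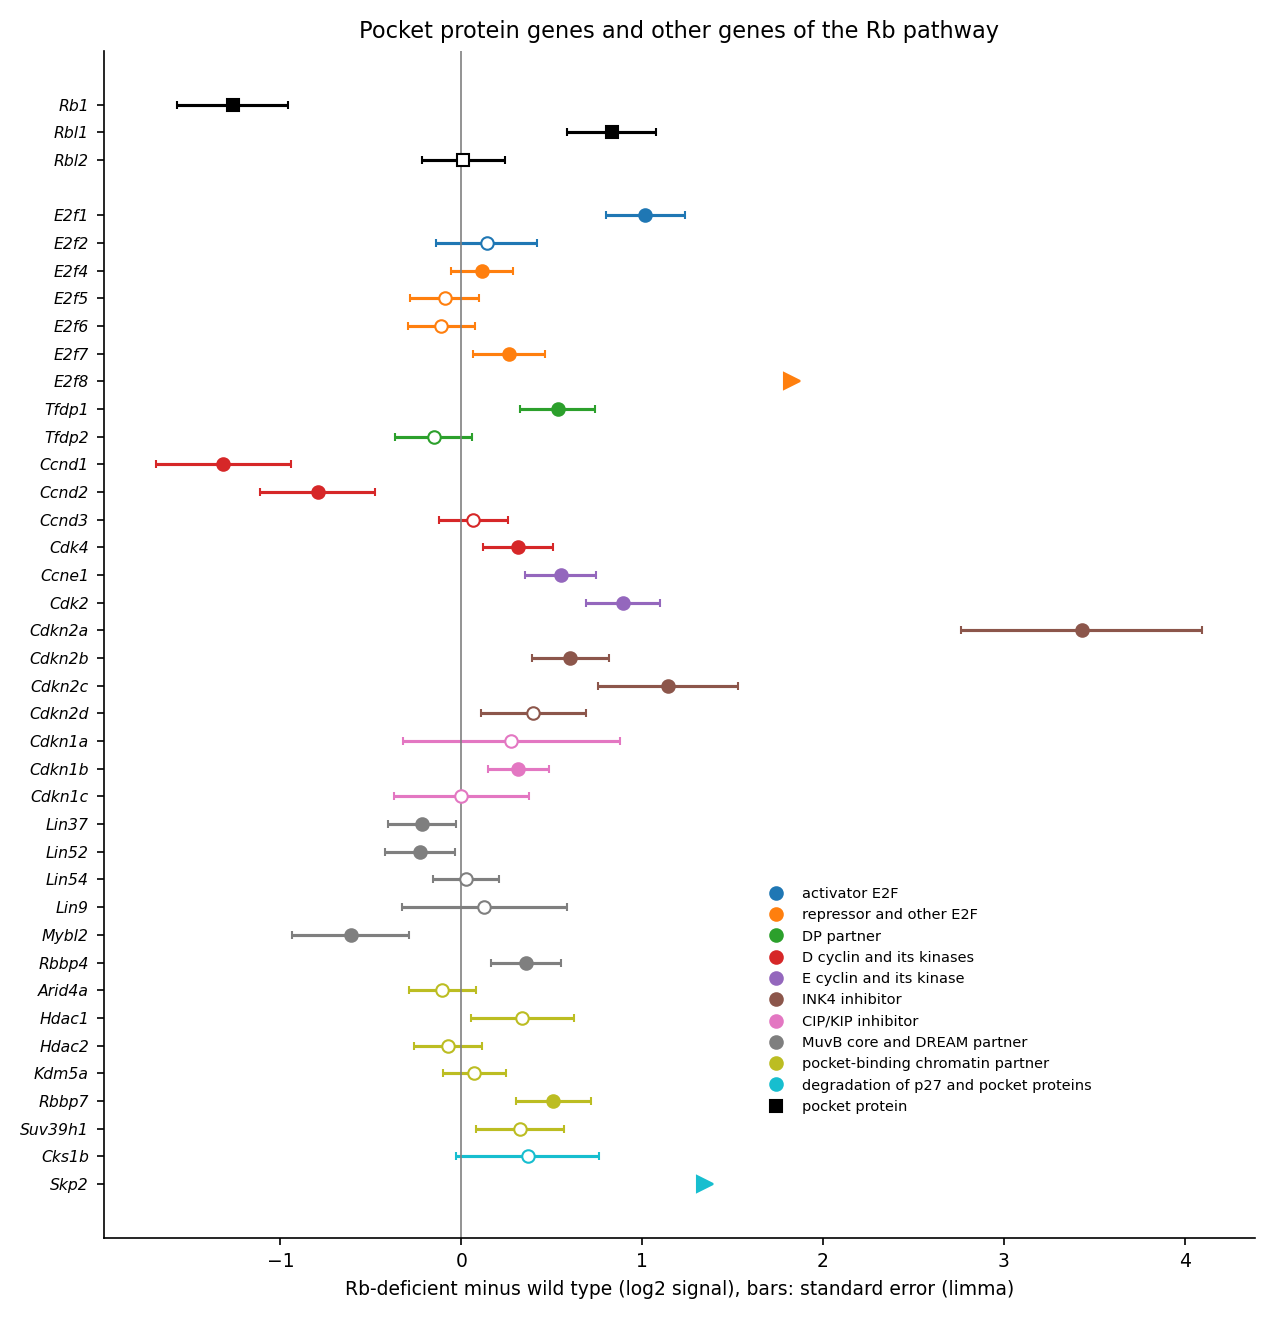
Difference in log2 signal between Rb-deficient and wild type islets (horizontal axis) for the pocket protein genes (black squares, brightest probe) and 36 other genes of the pathway, coloured by role, with standard errors from limma as bars. Filled symbols mark genes whose groups do not overlap, open symbols those that overlap, and triangles without bars the lower bounds for E2f8 and Skp2; Rb1, Ccnd1 and Ccnd2 lie on the lower side and the INK4 genes and E2f1 on the higher side.

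Markers of cell division and of other cell types were also compared between the groups, and no marker tested was called. All 10 proliferation markers were higher in Rb-deficient islets without overlap, against 14.8% of all probes, with Cdk1 not well above background on wild type array 2. Their summed signal, in units of the array's 75th percentile, was 5.69 and 5.70 in wild type islets and 11.99 and 21.1 in Rb-deficient islets. Rbl1 probe A_51_P286665 had the same order of groups, as did 14.8% of all probes, and of Rb-deficient mice. Its wild type values were -1.72 and -2.17, where the wild type sums were nearly equal. The other Rbl1 probes overlapped between the groups. All 14 acinar markers were lower in mean in Rb-deficient islets, or 11 of 14 with median scaling, with sums of 10373 and 8375 against 7662 and 4458. Rb1 signal was lower on the same arrays. Between the Rb-deficient arrays the acinar sum and Rb1 had the same order, and between the wild type arrays the opposite order. Macrophage markers had sums of 50.1 and 50.1 against 57.0 and 57.1, with Fcgr1 not well above background in wild type islets and 13 of 14 higher in mean in Rb-deficient islets. Their median difference was 0.90, and was 0.33 with Rb-deficient array 1 alone and 1.48 with array 2 alone. Itgam, the marker that was lower in mean, gave 35.4 and 33.0 against 37.5 and 21.6 of these sums, and the other 13 together gave 14.6 and 17.1 against 19.5 and 35.5, a split made after seeing the data. Endothelial sums were 32.1 and 32.9 against 33.8 and 40.4, with Cldn5 not well above background on Rb-deficient array 1. Ductal sums were 22.7 and 16.3 against 13.4 and 17.4. Stromal sums were 9.31 and 10.7 against 8.88 and 15.5, with Pdgfra not well above background on any array. Lymphocyte sums were 9.48 and 7.84 against 8.68 and 8.91. In that order, 9, 6, 6 and 8 of the 10 lymphocyte markers were well above background. Ductal, stromal and lymphocyte sums overlapped between the groups. The part of these cell types in the pocket protein values was not tested.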

How the data were processed

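Each deposited scanner file gives an intensity for every spot of 1 array. Its processed signal was made by the authors with Agilent Feature Extraction 12.0.3.1, per the file headers, with background subtracted and no scaling between arrays, on a design annotated with mm9. All 4 arrays lay on 1 slide. A deposited value table holds the same intensity values times 1 constant per array; what set the constant is unknown, and its column medians were 220, 181, 188 and 157.

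Control and outlier spots were left out. Processed signals were taken to log2, and the 75th percentile of all probes other than controls was subtracted on each array. Accessions were matched without versions to RefSeq genes of GRCm38.p6, which named 32994 of 56605 probes. Probes with both arrays of either genotype well above background were fitted with limma 3.58.1 in R 4.3.3 (two-sided, no covariates, threshold 0.05), with 2 residual degrees of freedom and a prior worth 1.88. Limma was tested on simulated data. The number of arrays limits the precision.

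The brightest probe stands for a gene outside the family. All probes of the 3 genes are reported, the pathway list may be named in full, and the 3 genes most like each member are named. Members, lists and rules were chosen with earlier results of these data known. The normexp alternative used median signals.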

Additional observations from a re-analysis of the deposited data

How the results depend on the processing

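With 2 mice per genotype and 1 array each, no result could pass an exact test. No alternative called any pocket protein probe. Over the alternatives the adjusted p in limma ranged from 0.285 to 1.00 for the brighter Rb1 probe and from 0.427 to 1.00 for the brightest Rbl1 probe, and neither turned in sign. Rbl2 turned to -0.043 with the percentile over detected probes and to -0.020 with the deposited table, and ranged from -0.16 to 0.18 with 1 array left out. With normexp Rbl1 probes A_55_P2024773 and A_55_P2601922 turned to -0.066 and -0.012, and with 1 array left out they ranged from -1.07 to 1.24 and from -0.083 to 2.44; the cause was not tested. Scaling to the array median called 572 probes, with 1 variance for all probes in limma, and with it the pathway list had a median of 0.71 and 3 called genes. Leaving out 1 array called 0 to 4901 probes, the most without wild type array 2. With the replicate number as a block limma called 0 probes, with differences of -1.26 for Rb1 and 0.83 for Rbl1. The deviations of same-numbered arrays correlated at 0.28 across probes, and nothing in the labels pairs the mice. A fit with slide as a block was not run, since all arrays shared 1 slide. The values of A_55_P2601922 lie close to background, and its range includes a wild type array 2 spot that was not measured, so neither end is a measured fold.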

Other observations

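The E2F letters found in the Rbl1 promoter were also looked up in the promoters of the genes tested, chosen after the values of Rbl1 were seen and given as a description with no test. Of 12533 genes tested that have a promoter in the table, 53.1% were higher in mean in Rb-deficient islets, with a median difference of 0.02. Any of the 4 spellings was present for 431 of them, and 281 of these, 65.2%, were higher, with a median of 0.10. For TTTCGCGC, the spelling in Rbl1, it was 43 of 67, or 64.2%, with a median of 0.09. For the CHR letters TTTGAA it was 865 of 1704, or 50.8%, with a median of 0.0047. In the pathway list, E2f7, Tfdp1, Cdk2, Cdkn2a, Lin52 and Suv39h1 were tested and had an E2F spelling, and 5 of these 6 were higher in mean, Lin52 being lower. Of the 21 tested list genes with a promoter but no E2F spelling, 16 were higher.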
